A study of Mus musculus with 265 samples.

Results

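Translation initiation and elongation factors were followed through the accessibility of the promoters of their genes in single mouse pre-B cells. A region of the deposited single-cell ATAC-seq matrix was taken as a member when its midpoint lay within 1 kb of the start of a protein-coding gene whose symbol begins with Eif or Eef, with gene starts from GENCODE vM21 on mm10. This gave 67 regions of 56 genes, out of 69 such genes annotated, among 8786 promoter regions and 20103 regions in all. Of the 56 genes, 45 had 1 region and 11 had 2, and the members lay on 20 chromosomes.

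The B3 line consists of mouse pre-B cells, and every cell carried the inducible ERt2-Ikaros fusion, in which the transcription factor Ikaros enters the nucleus once 4-hydroxytamoxifen (4OHT) is added. The 0-hour group was untreated, and the 24-hour group had received 4OHT over 24 hours with an extra dose about midway. There was no 4OHT-treated group without the fusion among the samples used, so 4OHT, Ikaros induction and time in culture cannot be told apart. Each time-point had 2 Fluidigm C1 runs, a microfluidic capture of single cells, in which Tn5 transposase cut and tagged the open DNA of each cell. The matrix held 48 and 47 cells for the 0-hour runs and 60 and 72 cells for the 24-hour runs.

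A value is the count of a cell in a region, and no value was above 2. The runs summed to between 92639 and 164357 counts, and the median cell had 2898, 1787, 1839.5 and 1676 counts in 0-hour runs 1 and 2 and then 24-hour runs 1 and 2, an order kept throughout. As a check of the cell type, 9 pre-B genes had a promoter region (Blnk, Cd24a, Cd79a, Cd79b, Ebf1, Igll1, Il7r, Pax5 and Vpreb1). Their 12 regions summed to 712, 659, 710 and 498 CPM (counts scaled to 1e+06 per run), with signal in 132 of 227 cells, while Ikzf1, Rag1 and Rag2 had no promoter region in the matrix. Of 7 T cell genes only Cd5 had one, with 1, 0, 4 and 3 counts. Of 6 myeloid genes only Lyz2 had one, with 2, 4, 0 and 1 counts, and none of 5 erythroid genes had a region.

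Translation starts when eIF2, bound to the initiator tRNA, and eIF3 load the small ribosomal subunit onto a messenger RNA whose cap is held by eIF4F. The eEF1 complex then delivers each aminoacyl-tRNA and eEF2 moves the ribosome along. Cells adjust the process through kinases that phosphorylate eIF2alpha, through inhibitors that hold eIF4E away from eIF4G, and through a kinase that slows eEF2. Proliferating lymphoid precursors depend on these factors, and the promoters of most of them are CpG-rich and open in nearly every cell type.

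The members covered a median of 149 bp, from 7 to 236. By their midpoints 41 lay upstream of the start, 20 in a 5′ UTR, 3 in an intron, 2 in a coding exon and 1 in another exon, and 46 lay within 100 bp of the start. Another gene also started within 1 kb of 14 of them, and 6 were closer to that other gene. Short motifs were searched on both strands: GGGAA, the core recognised by Ikaros, CCGGAAG (ETS factors), CACGTG (the E-box), GGGCGG (Sp1 and KLF factors), AAGATGGC (YY1), GCGCATGC (NRF1), CCAAT (NFY) and TATAAA (the TATA box). No motif of the list contains another, although matches can overlap. The 8 regions below carry contrasts described later, from the 2 members with the smallest p (Eif4a2 and Eif5a, by edgeR) to regions that differed little. They are mm10 sequence on the strand of the gene, 5′ to 3′, and capitals mark matches to these motifs. Regions that overlap an exon were cut to show no more than 20 bases past the start. The Eif5a region, which lies in an intron past the start, is shown whole.

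Eif4a2, chr16:23107333-23107463, plus strand: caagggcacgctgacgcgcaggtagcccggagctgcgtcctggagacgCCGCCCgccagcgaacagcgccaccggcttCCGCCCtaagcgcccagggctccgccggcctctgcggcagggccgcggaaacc
Eif5a, chr11:69921622-69921772, minus strand, in an intron: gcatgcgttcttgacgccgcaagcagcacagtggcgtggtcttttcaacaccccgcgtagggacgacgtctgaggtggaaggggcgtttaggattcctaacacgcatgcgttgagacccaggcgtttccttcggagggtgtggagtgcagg
Eef1g, chr19:8966922-8967060, plus strand: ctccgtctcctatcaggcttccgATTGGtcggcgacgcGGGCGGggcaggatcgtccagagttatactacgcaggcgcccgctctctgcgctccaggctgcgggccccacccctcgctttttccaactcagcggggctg
Eef2, chr10:81176495-81176648, plus strand: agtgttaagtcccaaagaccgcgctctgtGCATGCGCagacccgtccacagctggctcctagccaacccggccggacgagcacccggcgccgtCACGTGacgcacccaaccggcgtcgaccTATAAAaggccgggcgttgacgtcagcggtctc
Eef2k, chr7:120842700-120842850, plus strand: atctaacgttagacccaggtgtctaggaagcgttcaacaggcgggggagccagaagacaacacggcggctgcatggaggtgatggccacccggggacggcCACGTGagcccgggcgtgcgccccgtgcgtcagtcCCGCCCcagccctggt
Eif1ax, chrX:159371940-159372067, plus strand: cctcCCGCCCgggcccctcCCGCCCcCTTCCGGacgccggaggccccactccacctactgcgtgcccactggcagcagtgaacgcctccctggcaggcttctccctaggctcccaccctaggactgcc
Eif2ak4, chr2:118388429-118388583, plus strand: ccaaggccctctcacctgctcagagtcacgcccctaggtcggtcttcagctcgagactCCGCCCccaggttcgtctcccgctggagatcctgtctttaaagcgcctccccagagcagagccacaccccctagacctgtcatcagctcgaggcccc
Eif4a1, chr11:69672404-69672568, minus strand: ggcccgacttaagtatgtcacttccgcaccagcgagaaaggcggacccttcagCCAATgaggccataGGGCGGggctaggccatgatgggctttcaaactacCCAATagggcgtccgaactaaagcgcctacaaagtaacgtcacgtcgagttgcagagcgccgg

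In the window from 150 bases before to 50 bases after the start, the Sp1 and KLF letters were in 39 of the 56 member genes (69.6%), against 61.4% of all 8438 genes with a promoter region. The Ikaros core was in 25 (44.6%, against 49.3%), the ETS letters in 14 (25%, against 19.3%), the NFY letters in 13 (23.2%, against 34%) and the E-box in 7 (12.5%, against 8.97%). The letters for YY1, NRF1 and the TATA box were each in 2 member genes (3.57%, against 4.55%, 5.57% and 3.38%). Base composition was near that of other genes, with a median GC content of 63.3% against 63.5% and a median ratio of observed to expected CpG of 0.82 against 0.83. These are descriptions of letters in a window, and a match does not show that a factor binds there.

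Many messenger RNAs of the translation machinery begin with a run of pyrimidines, through which mTOR signalling controls their own translation. Within 10 bases on either side of the annotated start, an unbroken run of at least 8 pyrimidines was present in 9 of 56 member genes (16.1%) and in 598 of 8382 other genes (7.13%), while the median longest run was 3.5 bases against 4. The limit of 8 was chosen for this description. A run can lie wholly before the annotated start, as in Eif3k and Eif2d below. The 9 genes are therefore not a count of messenger RNAs that begin with such a run. Of these 9, 6 are shown as examples with the run in capitals, 10 bases before to 10 bases from the start on.

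Eif3f: taggCTCTCTCTCTTTCTCg
Eif2b5: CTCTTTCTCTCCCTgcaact
Eif3a: gtggTTCCTTCCTTTCCgtc
Eif3k: CTTTCCCTTTgccttccttg
Eif2d: gCCCCTCCCCacctggcgct
Eef1g: cccctcgCTTTTTCCaactc

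Taken as a group, the members followed the other promoters. They held 0.751%, 0.796%, 0.771% and 0.797% of the promoter counts of the 4 runs (630, 358, 551 and 754 counts). The 24-hour values lay within the range of the 0-hour values or just above it, and the log2 ratio of the mean shares was 0.02. Promoter regions as a whole held 51.0%, 48.5%, 58.3% and 66.4% of all counts, higher in both 24-hour runs. On the scale of all regions the median member therefore had a log2 change from 0 to 24 hours of 0.39, with quartiles of -0.28 and 0.98, beside 0.33 for the 8719 other promoter regions and -0.06 for all regions. When the fit was restricted to promoter regions, so that each change was relative to promoters, the median member was at 0.09 and the other promoter regions at 0.03. With the number of cells as the scale in place of the counts, the median member was at -0.10 and the other promoters at -0.15. The sign of a typical member's change thus depended on this scale.

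**Figure D1:**
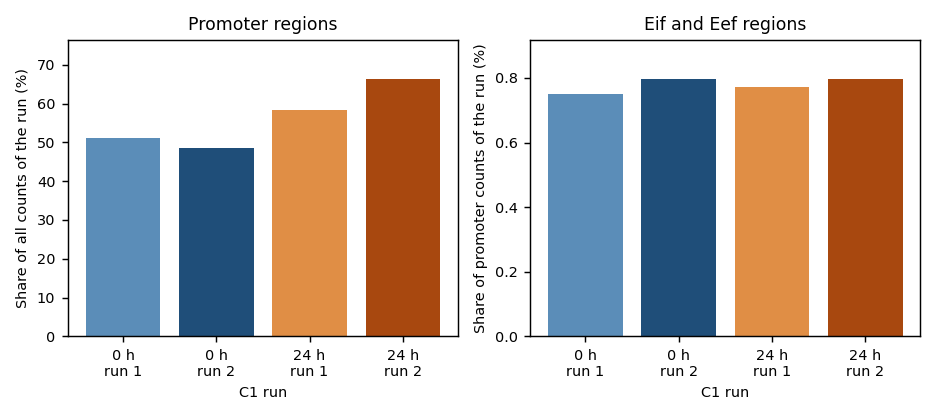
Share of all counts of a run that lay in promoter regions (left) and share of promoter counts that lay in the 67 Eif and Eef regions (right), in percent, 1 bar for each C1 run. The left bars stand higher at 24 hours (58.3% and 66.4%) than at 0 hours (51.0% and 48.5%), while the right bars stay between 0.751% and 0.797%.

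No member passed the test of a change from 0 to 24 hours, by edgeR's quasi-likelihood test over all 20103 regions at a Benjamini-Hochberg adjusted p under 0.05. Over all regions this rule called 10 higher at 24 hours (0.0497%) and 7 higher at 0 hours (0.0348%). Among the other promoter regions it called 4 (0.0459%) and 0. At an unadjusted p under 0.05, 5 members were higher at 24 hours and 1 at 0 hours, against 5.23% and 7.01% of all regions and 7.91% and 1.89% of the other promoter regions. DESeq2 called 0 members and 0 regions, with 2 and 1 members at the unadjusted threshold, against 2.25% and 3.15% of all regions. In 22 members each 24-hour run exceeded each 0-hour run (32.8%, against 28.0% of other promoter regions), and the reverse held in 11 (16.4%, against 13.1%). In thinned cells these counts were 13 and 9, with no share of other promoter regions worked out to set beside them. Among the 49 members with at least 20 counts, the median absolute log2 difference was 0.59 between the 0-hour runs, 0.56 between the 24-hour runs and 0.58 between runs of different time-points, and that between the means of the time-points was 0.66. In the 5917 other promoter regions with as many counts these were 0.59, 0.66, 0.71 and 0.57. The smallest adjusted p of a member was 0.172.

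**Figure D2:**
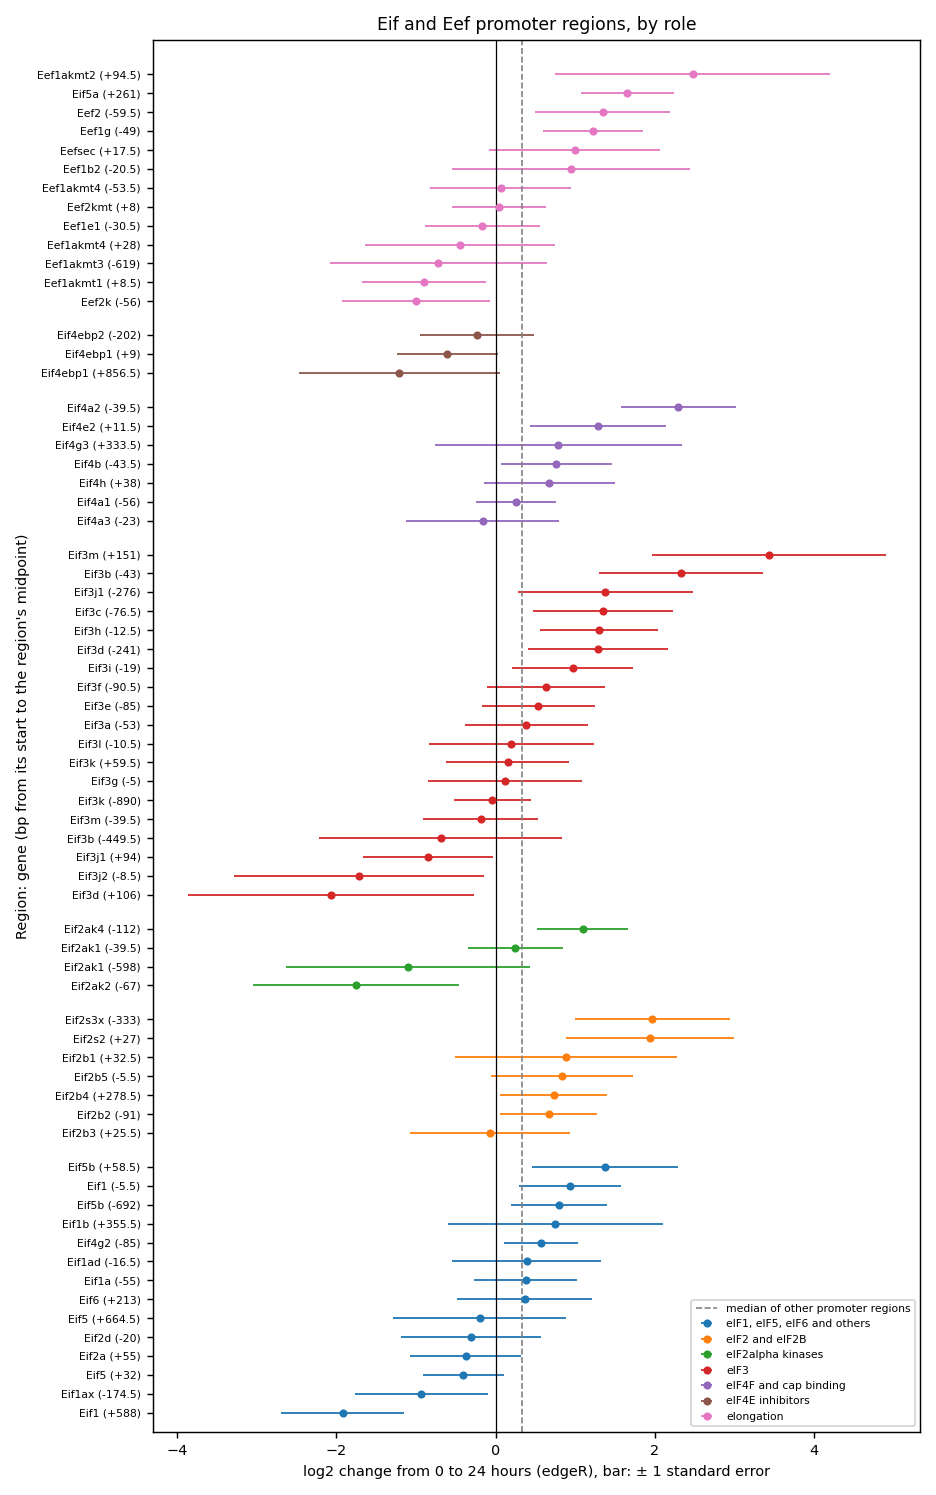
Log2 change from 0 to 24 hours (edgeR, positive when higher at 24 hours) of each of the 67 regions, grouped by role, with bars of 1 standard error and the distance in bp of the midpoint from the gene start in brackets. Of the points, 43 lie above 0 (64.2%, against 64.6% of the other promoter regions) and 24 below. The dashed line at 0.33 is the median of the other promoter regions.

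The cap-binding machinery held the member with the smallest p. Of its 7 regions, 6 (85.7%, against 64.6% of other promoter regions) had a log2 change above 0 and 1 below, with a median of 0.76. For 4 of them (57.1%, against 28.0% of other promoter regions) the 24-hour runs both exceeded the 0-hour runs, in Eif4a1 by only 162 against 158 CPM. Eif4a2 encodes an RNA helicase of the eIF4A family that unwinds the leader of a messenger RNA. Its region, 39.5 bp upstream of the start and printed above, held 6, 2, 22 and 17 counts, or 36.4, 20.9, 178 and 125 CPM after TMM normalization, the scale of all CPM below. Both 24-hour values were over 3 times the larger 0-hour value, and the log2 change was 2.29 ± 0.72 (SE from 2 runs for each time-point, as for all changes below). The edgeR p was 0.00216 before and 0.172 after adjustment. Relative to promoters alone it was 2.01 ± 0.72, and without any 1 run it stayed between 2.01 and 2.81. In thinned cells the region was seen in 2.08%, 2.17%, 14.9% and 12.7% of the cells of the 4 runs. A count was seen in 5 of 95 cells at 0 hours (5.26%, exact 95% interval 1.73 to 11.9%) and in 21 of 132 at 24 hours (15.9%, 10.1 to 23.3%), intervals that ignore that cells share runs.

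Eif4a1, the paralog of Eif4a2, was higher than it in both untreated runs and had a smaller log2 change. In the treated runs the levels of the paralogs overlapped, with 178 and 125 CPM for Eif4a2. The Eif4a1 region held 158, 136, 162 and 191 CPM, among the highest of the members in all 4 runs. The log2 change was 0.25 ± 0.50 (edgeR adjusted p = 0.892), and relative to promoters alone it was -0.05. The difference between the paralogs was not tested. Each of the 2 regions matched the genome once.

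Of the other cap-binding genes, Eif4e2, a cap-binding homolog of eIF4E, had 48.5, 10.4, 64.7 and 95.3 CPM. Eif4b, which stimulates the helicase, had 66.7, 52.2, 72.8 and 132 CPM. Both were higher in each 24-hour run than in either 0-hour run, with log2 changes of 1.28 ± 0.86 and 0.76 ± 0.70. Without 0-hour run 1 that of Eif4e2 was 2.84. Eif4a3, a helicase of the exon junction complex, was the one with a change below 0 (-0.16 ± 0.96), but without 0-hour run 1 it was at 0.87. Eif4g3 held 8 counts in all. Eif4e and Eif4g1 had no region within 1 kb of the gene start. Near other transcript starts, outside the rule for members, 1 region of Eif4e held 10, 4, 8 and 7 counts (log2 change 0.14 ± 0.83). Another Eif4e region held 7, 0, 3 and 1. The Eif4g1 region with the most counts held 7, 7, 8 and 35, most of them in 24-hour run 2.

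Of the 3 regions of eIF4E inhibitors, none had a log2 change above 0, against 64.6% of other promoter regions. Eif4ebp1 and Eif4ebp2 encode the proteins that mTOR releases from eIF4E by phosphorylation. The Eif4ebp1 region 9 bp past the start held 103, 136, 80.8 and 73.3 CPM, highest in the 0-hour runs (log2 change -0.61 ± 0.63, edgeR adjusted p = 0.762). The Eif4ebp2 region 202 bp upstream held 72.8, 94.0, 80.8 and 58.7 CPM, with overlapping time-points (-0.24 ± 0.72). A second Eif4ebp1 region, 856.5 bp into the gene, held 14 counts in all. The median of the 3 was -0.61, but each differed from 0 by less than 1 standard error.

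Elongation factors held the member with the next smallest p. Eif5a, whose protein carries the amino acid hypusine and helps ribosomes past stalling sequences, had its region in an intron 261 bp past the start. It held 11, 5, 24 and 26 counts, or 66.7, 52.2, 194 and 191 CPM. The runs of a time-point lay close together and the time-points were far apart, with a log2 change of 1.65 ± 0.58 (edgeR p = 0.00598, adjusted p = 0.225). A count was seen in 12.6% of 0-hour cells (exact 95% interval 6.70 to 21.0%) and 22.7% of 24-hour cells (15.9 to 30.8%). Leaving out 1 run gave changes from 1.52 to 1.88, and relative to promoters alone it was 1.36 ± 0.58. With every cell thinned to 837 counts the change was 0.70, and the region was seen in 6.25%, 2.17%, 14.9% and 3.17% of the thinned cells, which overlap between time-points. A second region by another Eif5a transcript held 5 counts in every run.

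Eef1g, a subunit of the exchange factor of eEF1A, had 60.6, 62.7, 113 and 176 CPM (log2 change 1.23 ± 0.63, edgeR adjusted p = 0.425). Eef2, the translocase itself, had 18.2, 52.2, 72.8 and 95.3 CPM (1.35 ± 0.85, adjusted p = 0.562 by edgeR). In both genes the 24-hour runs were above the 0-hour runs, and neither passed the test. In thinned cells the runs overlapped, with Eef1g seen in 2.08%, 8.70%, 4.26% and 15.9% of cells and Eef2 in at most 2.17% at 0 hours and in 2.13% and 7.94% at 24 hours (log2 change of Eef2 2.52). The Eef2 change was 0.70 without 0-hour run 1 and 2.16 without 0-hour run 2. Eef2k, the kinase that slows eEF2, had the opposite order with 54.6, 73.1, 40.4 and 22.0 CPM (-1.0 ± 0.93). Its region was seen in 2.08%, 8.70%, 2.13% and 1.59% of thinned cells, which overlap between time-points (log2 change -1.84). The regions of Eef2 and Eef2k printed above both hold the E-box letters, and of these only the Eef2 region holds the TATA letters.

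Enzymes that methylate the elongation factors did not share a direction. Eef1akmt1, a lysine methyltransferase of eEF1A, had 72.8, 104, 48.5 and 44.0 CPM, lower in both 24-hour runs (log2 change -0.90 ± 0.77). Eef2kmt, the methyltransferase of eEF2, had 133, 83.6, 88.9 and 139 CPM, with no separation (0.04 ± 0.59). Eef1akmt2 had 0, 1, 4 and 3 counts, too few to place. Over the 13 regions of the group 8 were above 0 (61.5%, against 64.6% of other promoter regions) and 5 below, with a median log2 change of 0.06. Eef1a1, the main delivery factor, had no region at its gene start, and the 3 regions near its other transcript starts held 7, 18 and 33 counts in all.

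**Figure D3:**
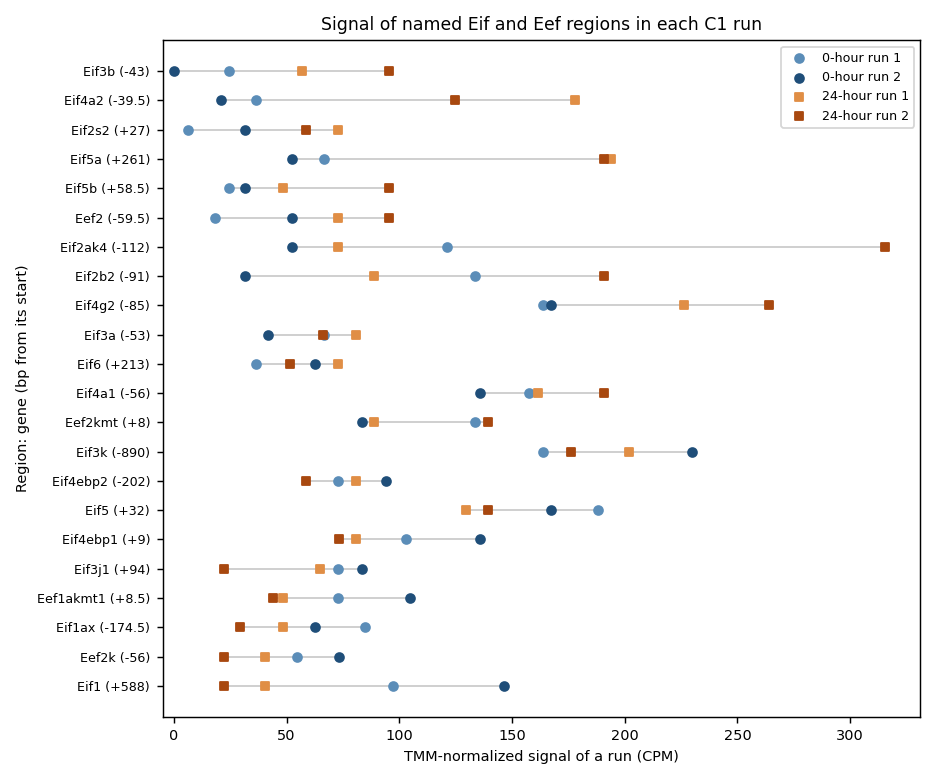
Normalized signal in CPM of 22 Eif and Eef regions chosen by rule, in the 2 0-hour runs (circles) and the 2 24-hour runs (squares), ordered by log2 change. Near the top, below Eif3b, the regions of Eif4a2 and Eif5a keep their circles apart from their squares. At the bottom the Eif1 region 588 bp past the start has both squares below its circles. The Eif2ak4 point at 315 CPM is 24-hour run 2 alone.

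The ternary complex and its exchange factor eIF2B had 7 regions, with a median log2 change of 0.83. Of these, 6 were above 0 (85.7%, against 64.6% of other promoter regions). In 2 (28.6%, against 28.0% of other promoter regions) both 24-hour runs lay above. Eif2s2, the beta subunit of eIF2, had 1, 3, 9 and 8 counts, or 6.06, 31.3, 72.8 and 58.7 CPM (log2 change 1.94 ± 1.06, edgeR adjusted p = 0.466). Without 0-hour run 1 it was 1.06 and without 0-hour run 2 it was 3.26. Eif2b5, the catalytic subunit of eIF2B, had 24.3, 52.2, 64.7 and 66.0 CPM (0.83 ± 0.89). These are the 2 regions of the group whose 24-hour runs both lay above the 0-hour runs.

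In 1 gene of the group most counts came from 24-hour run 2. Eif2s3x, the X-linked gamma subunit of eIF2, had 5, 1, 0 and 24 counts. The 0 in 24-hour run 1 allows up to 24.3 CPM, the limit set by 3 counts, whereas 24-hour run 2 had 176 CPM. The log2 change was 1.97 ± 0.98 (edgeR p = 0.0476, adjusted p = 0.401). Without 24-hour run 1 it was 2.91 with an adjusted p of 0.0171 by edgeR, a call that rests on 1 run. Without 24-hour run 2 only the 0 was left for that time-point, and no fold is given. Eif2b2, a regulatory subunit of eIF2B, had 133, 31.3, 88.9 and 191 CPM, with overlapping time-points (0.66 ± 0.61), and without 1 run its log2 change lay between -0.02 (without 24-hour run 2) and 2.15 (without 0-hour run 1). Eif2s1, the subunit that the stress kinases phosphorylate, had no member region.

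The eIF2alpha kinases stop initiation under stress. Their 4 regions were split, 2 above 0 (50%, against 64.6% of other promoter regions) and 2 below. Eif2ak4 encodes GCN2, which senses uncharged tRNA. Its region, 112 bp upstream of the start, had 20, 5, 9 and 43 counts, or 121, 52.2, 72.8 and 315 CPM. The 24-hour run 2 value was the highest of any member in any run, but 24-hour run 1 lay between the 0-hour runs (log2 change 1.10 ± 0.57, edgeR adjusted p = 0.435). Without 24-hour run 1 it was 1.76 with an adjusted p of 0.0342 by edgeR, where a lone 24-hour run is assumed to vary like the 0-hour runs, and without 24-hour run 2 it was -0.34. Eif2ak1, the heme-regulated kinase, had 121, 73.1, 105 and 132 CPM by its start (0.25 ± 0.60). Eif2ak2, the kinase activated by double-stranded RNA, had 4, 6, 2 and 1 counts, with both 0-hour runs above (-1.75 ± 1.30, and -1.01 without 0-hour run 2). Eif2ak3 had no member region.

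The eIF3 complex, the scaffold of initiation, had the most regions, 19, with a median log2 change of 0.39. Of these, 13 were above 0 (68.4%, against 64.6% of other promoter regions) and 6 below. Eif3b, part of its core, had 4, 0, 7 and 13 counts in the region 43 bp upstream, or 24.3, 0, 56.6 and 95.3 CPM (log2 change 2.33 ± 1.03, edgeR adjusted p = 0.331). The 0 in 0-hour run 2 allows up to 31.3 CPM. Without that run the log2 change was 1.62, in thinned cells it was 1.28, and without 0-hour run 1 only the 0 was left, so no fold is given. Eif3a, the largest subunit, had 66.7, 41.8, 80.8 and 66.0 CPM, with overlapping time-points (0.39 ± 0.77).

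Eif3c, another core subunit, had 36.4, 20.9, 97.0 and 58.7 CPM (log2 change 1.35 ± 0.88). Eif3h, one of the outer subunits, had 60.6, 20.9, 138 and 80.7 CPM (1.29 ± 0.74, and 2.34 without 0-hour run 1). Both had each 24-hour run above each 0-hour run. In thinned cells the runs overlapped, with Eif3c seen in 4.17%, 2.17%, 8.51% and 1.59% of cells and Eif3h in 6.25%, 2.17%, 17.0% and 4.76%. Eif3k had the member with the second most counts, 164, 230, 202 and 176 CPM, but that region was 890 bp upstream and closest to Map4k1 (-0.04 ± 0.48).

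Eif3j1 and its copy Eif3j2 cannot be fully told apart. The Eif3j1 region 94 bp past the start matched 2 places in the genome, as did the Eif3j2 region, so reads could be assigned to either or lost. As deposited, it had 72.8, 83.6, 64.7 and 22.0 CPM (log2 change -0.84 ± 0.82). Leaving out 24-hour run 1 gave -1.77, and leaving out 24-hour run 2 gave -0.25. The other Eif3j1 region, 276 bp upstream and matching once, had 24.3, 10.4, 40.4 and 58.7 CPM, the reverse order of the time-points (1.38 ± 1.10, and 2.16 without 0-hour run 1).

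Among the remaining initiation factors, 8 of 14 regions were above 0 (57.1%, against 64.6% of other promoter regions), with a median of 0.37. Eif4g2 encodes DAP5, an eIF4G homolog that lacks the part that binds eIF4E. It had the most counts of all members, 107, and 164, 167, 226 and 264 CPM, with the 0-hour runs nearly equal and both 24-hour runs higher (log2 change 0.57 ± 0.47, edgeR adjusted p = 0.683). Eif5b, the GTPase that joins the ribosomal subunits, had 24.3, 31.3, 48.5 and 95.3 CPM 58.5 bp past its start (1.38 ± 0.92). Eif6, which keeps the large subunit apart until it is needed, had 36.4, 62.7, 72.8 and 51.3 CPM with overlapping time-points (0.36 ± 0.84).

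Eif5, which triggers GTP hydrolysis by eIF2, ran the other way. Its region 32 bp past the start had 188, 167, 129 and 139 CPM (log2 change -0.41 ± 0.51, edgeR adjusted p = 0.818). A count was seen in 35.8% of 0-hour cells (exact 95% interval 26.2 to 46.3%) and 15.9% of 24-hour cells (10.1 to 23.3%), at higher depth per cell in 0-hour run 1. Thinned to equal counts, 20.8%, 8.70%, 4.26% and 12.7% of the cells of the 4 runs had one, which overlap between time-points. Eif1ax, an eIF1A gene on the X chromosome, had 84.9, 62.7, 48.5 and 29.3 CPM (-0.94 ± 0.83). In both genes the 0-hour runs lay above the 24-hour runs.

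Eif1, which guards start codon selection, had 2 regions that went opposite ways. The region over the start had 13, 5, 11 and 23 counts (log2 change 0.93 ± 0.64). The region 588 bp past the start, over a coding exon at chr11:100320399-100320547, had 16, 14, 5 and 3 counts, or 97.0, 146, 40.4 and 22.0 CPM. Its log2 change of -1.92 ± 0.77 was the only one below 0 with an unadjusted p under 0.05 (edgeR p = 0.0156, adjusted p = 0.301), and relative to promoters alone it was -2.21 ± 0.76. A count was seen there in 22.1% of 0-hour cells (exact 95% interval 14.2 to 31.8%) and 3.79% of 24-hour cells (1.24 to 8.62%). Thinned to equal counts, 8.33%, 10.9%, 4.26% and 3.17% of the cells of the 4 runs had one, and the log2 change was -0.99. The start region thus held 44.8%, 26.3%, 68.8% and 88.5% of the counts of both regions, higher in each 24-hour run than in either 0-hour run. A test of this share was not made.

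The other 10 genes with 2 regions differed among themselves. In Eif3j1 the region nearer the start held 75%, 88.9%, 61.5% and 27.3% of the counts of both, lower at 24 hours. Eif3m, a subunit of eIF3, held 100%, 85.7%, 66.7% and 52.2% in the nearer region, because the intron region 151 bp past the start had 0, 1, 3 and 11 counts (log2 change 3.43 ± 1.46, edgeR adjusted p = 0.320). Leaving out 0-hour run 1 gave 2.26 and leaving out 24-hour run 2 gave 2.34, while leaving out 24-hour run 1 gave 4.06 with an edgeR adjusted p of 0.0676. With 0-hour run 1 alone that time-point is at 0 and no fold is given. In Eif5 the nearer region held 79.2% to 86.1% in all runs. In Eef1akmt4, which encodes a methyltransferase of eEF1A, it held 40%, 40%, 30% and 33.3%, on 14 counts. Of the remaining 6 genes, Eif2ak1, Eif3b and Eif3d had under 10 counts in 1 region, and Eif3k, Eif4ebp1 and Eif5b overlapped between time-points.

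**Figure D4:**
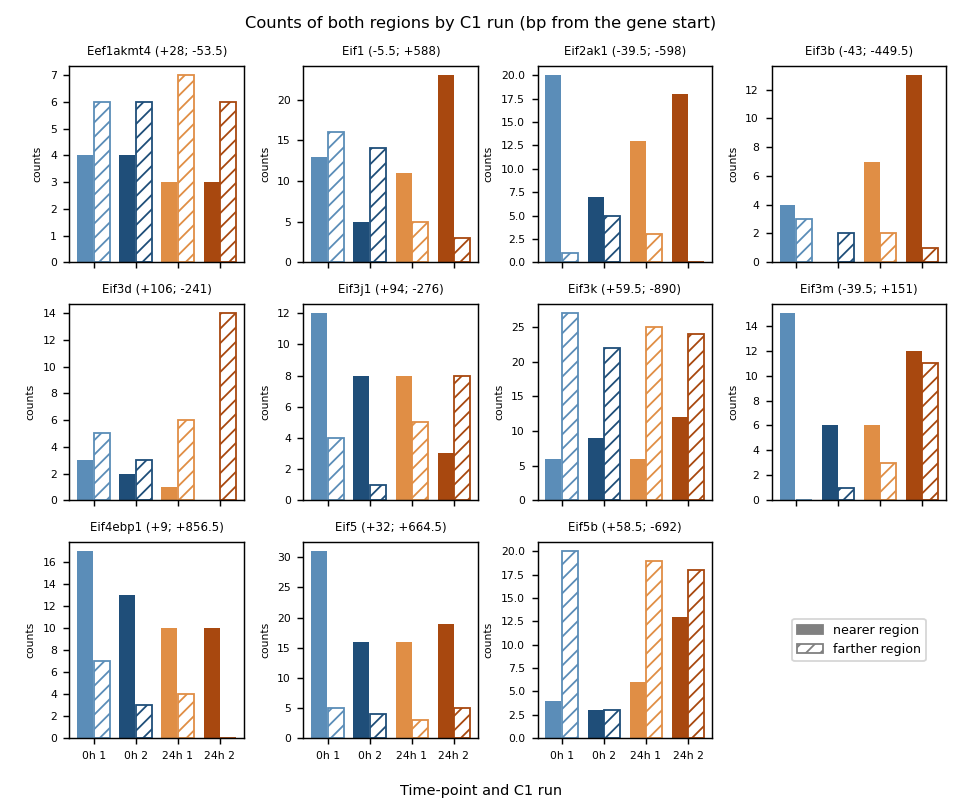
Counts by C1 run (0h 1, 0h 2, 24h 1, 24h 2) in the region nearer the gene start (filled) and the farther one (hatched), for the 11 genes with 2 regions, on a separate scale for each gene, with both distances in bp in the title. In Eif1 the farther region is the taller bar in both 0-hour runs (16 and 14 counts) and the shorter in both 24-hour runs (5 and 3).

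By position in the promoter the medians were close. Regions centred upstream had a median log2 change of 0.39 and those centred downstream 0.26. Within 100 bp of the start the median was 0.39 over 46 regions, and beyond it 0.36 over 21, next to 0.40 and 0.23 in the other promoter regions. Members shared with another gene start were at 0.39 over 14 regions, and the 53 others also at 0.39. The spread was wide in each class, as the plot of change against position shows.

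**Figure D5:**
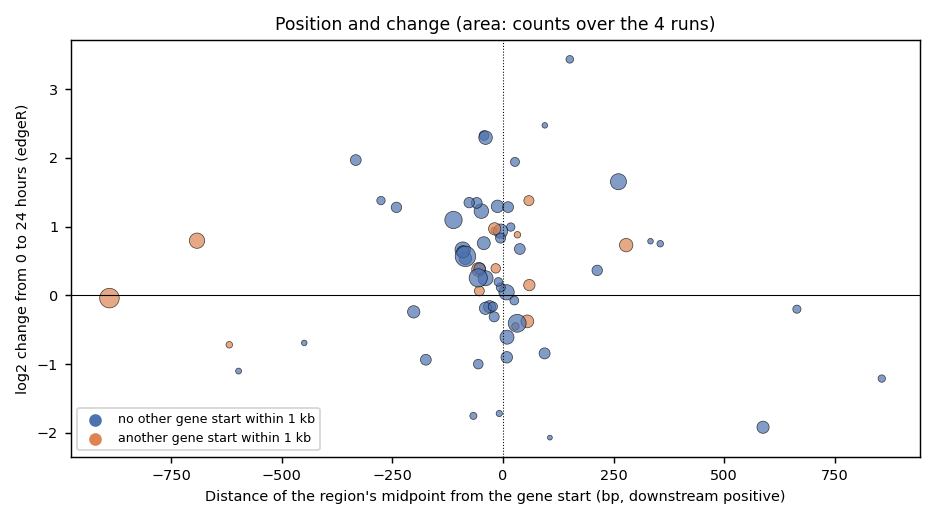
Log2 change from 0 to 24 hours (edgeR) of the 67 regions against the distance in bp of the midpoint from the gene start, with the area of a point proportional to its counts over the 4 runs and orange marking regions with another gene start within 1 kb. Most points lie within 100 bp of the start, and points above and below 0 occur on both sides of it.

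Gene groups of similar kind are set beside the members. The 77 promoter regions of cytosolic ribosomal proteins had a median log2 change of 0.36 with 51 above 0 (66.2%). The 45 of proteasome subunits were at 0.53 with 31 above 0 (68.9%), against 64.6% of the other promoter regions. In either group edgeR called 0 regions. At an unadjusted p under 0.05 there were 5 and 2 ribosomal regions and 4 and 0 proteasome regions in the 2 directions. The ribosomal protein regions held 0.832%, 0.774%, 0.857% and 0.908% of promoter counts and the proteasome regions 0.446%, 0.434%, 0.509% and 0.482%. The other promoter regions were at 0.33, and the difference of a group from them was not tested.

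Seen cell by cell, a median of 8, 4, 5 and 5.5 members had a count in a cell. Thinned to 837 counts in each cell, which left out 23 shallower cells, the medians were 3, 2.5, 3 and 4 and the means 2.58, 2.83, 3.17 and 3.84. Of all values 90% were 0 (all promoter regions 90.3%), and 50.7% of the values above 0 were 2 (52.8%). The Eif4g2 region, the most often detected at 24 hours, had a count in 29.5% of 0-hour cells and 30.3% of 24-hour cells, so that no member could be followed from cell to cell at this depth.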

How the data were processed

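Single-cell ATAC-seq of ERt2-Ikaros B3 cells was used, and the bulk samples were not. The authors mapped reads to mm10 with Bowtie2, removed duplicates with Picard, called peaks on bulk samples with HOMER and quantified each cell in them, and they deposited these counts without normalization. No value exceeded 2, and no source used here states a cap. The 227 cell columns were assigned to C1 runs by name (0 were unmapped, 0 identical). Counts were summed by run and tested with edgeR 4.0.16 in R 4.3.3 (TMM, quasi-likelihood, robust, Benjamini-Hochberg, threshold 0.05). TMM factors lay between 0.956 and 1.03. A standard error is the absolute log2 change over the square root of F. Whether runs were separate cultures is not stated, so p-values measure the spread between runs. Alternatives included DESeq2 1.42.0. The code was tested on simulated data. Copies were searched with BLAST 2.17.0 at 90% identity over 80% of a region. Intervals (95%, Clopper-Pearson, SciPy 1.17.1) and limits cover counting error only.

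Named regions were the 8 with most counts, up to 5 in each direction with the largest change among those with at least 20 counts and separated runs, and those of 15 listed genes. Others are named to complete a role, having been chosen after their values were seen. The members and lists were chosen with earlier results of these data known. Sequences are from the RefSeq mm10 assembly, and the authors' coordinates are printed as deposited. Of the pre-B marker list, 1 gene is not reported here.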

Additional observations from a re-analysis of the deposited data

How the results depend on the processing

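None of the 67 members was called in any alternative run here that kept all runs. Over 11 of these, 234 values of the 22 named regions were obtained, and 222 kept their direction and side of the threshold. Over all regions edgeR called 10 higher at 24 hours and 7 at 0 hours. Scaling by run totals gave 23 and 15, thinned cells 5 and 0, and DESeq2 0 and 0. When cell numbers served as offset, 2 were higher at 24 hours. Those higher at 0 hours numbered 1 with DESeq2 size factors, 20 with a filter of 10% of cells for detection and 3 without robust estimation. The last, and the fit over promoter regions alone, were added after seeing the data. A filter on regions with few cells removed none, so the fit without it repeated the main values by construction. These repeated values are counted among the 222. The fit without robust estimation also left each log2 change as it was.

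The median member (0.39) was at -0.10 with cells as offset, 0.12 in the 10% filter, 0.55 in thinned cells, 0.55 with regions within 500 bp, 0.21 with counts summed per gene and 0.0948 over promoters alone. Its difference from other promoters was -0.0344, 0.18, 0.18 and 0.16 in the 10% filter, thinned cells, 500 bp and per gene. The log2 ratio of shares was 0.0701 in thinned cells, 0.0705 within 500 bp and 0.092 with any transcript start. Thinned cells left 13 members with both 24-hour runs above, with no share of other promoter regions beside it. The cause of these shifts was not tested.

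Signs turned for Eef2kmt (-0.00834 with totals, -0.48 with cells as offset, -0.24 in the 10% filter, -0.0432 thinned, -0.26 over promoters), Eif4a1 (-0.24 with cells as offset, -0.0247 in the filter, -0.0468 over promoters), and Eif3a (-0.11) and Eif6 (-0.0393) with cells as offset. Reduced to detected or not, Eif3k 890 bp upstream was at 0.20 and Eif4ebp2 at 0.0782. Thinned cells moved the fold change of 12 named regions by over 1.5 times, among them Eef1akmt1 (-2.70), Eef2 (2.52), Eif2ak4 (2.21), Eef2k (-1.84), Eif1ax (-1.66), Eif2b2 (1.51), Eif2s2 (1.35), Eif4ebp2 (-0.86) and Eif3j1 (-0.13), with no sign change among the 12.

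Leaving out 1 run leaves a lone run at a time-point, assumed to vary like the 2 runs of the other, which alone supply the spread. It gave 1 to 432 regions higher at 24 hours and 0 to 290 at 0 hours, the highest without 24-hour run 1, where 2 members were called, Eif2ak4 and Eif2s3x (0 to 2 over the runs). Dropping 0-hour run 1 gave 6 and 0, dropping 0-hour run 2 gave 1 and 0, and dropping 24-hour run 2 gave 2 at 0 hours. Members with every remaining 24-hour run above numbered 26 to 37 and with every remaining 0-hour run above 16 to 21. No share of other promoter regions was worked out beside these. With 1 run fewer this rule is easier to meet, so the 22 and 11 of all runs lie below these ranges by construction. The median ranged from 0.0729 to 0.57, its difference from other promoters from -0.0923 to 0.21, and the log2 ratio of shares from -0.02 to 0.06. Eef2kmt ranged from -0.33 to 0.47, Eif3k from -0.26 to 0.21, Eif2ak4 from -0.34 to 1.91 and Eif2b2 from -0.0246 to 2.15.

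Run numbers did not pair the samples: the correlation of the run 2 minus run 1 differences of the time-points over regions was -0.0227. With a replicate block 2 regions were called higher at 0 hours and 0 members were called. Both depth and spread limit these values: 18 of 67 members had under 20 counts in all, and the biological coefficient of variation between runs was 0.419. At this depth and spread, a member that was not called may still have changed.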

Other observations

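Other genes of translation and its control, among them release factors, mitochondrial translation factors and stress-response genes, were read from a list of 39, of which 31 had a promoter region, 33 regions in all. By edgeR's quasi-likelihood test 0 of these regions were called. At an unadjusted p under 0.05, 2 were higher at 24 hours and 0 at 0 hours, against 7.91% and 1.89% of promoter regions that are no members. Their median log2 change was 0.10, with 19 above 0, against 64.6% of promoter regions that are no members. Both 24-hour runs lay above in 7 and both 0-hour runs in 5, against 28.0% and 13.1% of those same regions.

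Paip2, which holds the poly(A)-binding protein away from initiation, had 8, 9, 24 and 21 counts at its start, so that both 24-hour runs were higher (log2 change 1.34 ± 0.59, edgeR adjusted p = 0.329). A second Paip2 region, 637.5 bp past the start, had 14, 2, 2 and 6 counts, with overlapping time-points (-0.87 ± 0.96). Rps6kb1, the mTOR-driven kinase of ribosomal protein S6, had 2, 6, 2 and 30 counts, most of them in 24-hour run 2 (1.82 ± 0.83). Without that run its log2 change was -1.0, and without 0-hour run 2 it was 3.21. Mtor itself had 19, 8, 21 and 28 counts (0.89 ± 0.53), again with the 24-hour runs above. Etf1, the release factor that ends translation, had 28, 19, 13 and 14 counts, with both 0-hour runs above (-0.81 ± 0.53). No hypothesis was drawn from these values.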
